A study of Mus musculus with 6 samples.

Results

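Cardiac ion channels set the membrane potential of heart muscle cells, and connexins pass current from cell to cell. The genes described here are 9 such genes that are central to the embryonic heart: the pacemaker channel gene Hcn4, the potassium channel genes Kcnh2 and Kcnq1, the calcium channel genes Cacna1c, Cacna1d and Cacna1h, and the connexin genes Gja1, Gja5 and Gjc1. They were found by gene symbol in a table of normalized read counts, which held 8 of the 9 among 16832 genes, and Kcnq1 was not analysed here. All 8 passed the filter on low values, a mean of at least 10 normalized counts, which 16794 genes met.

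RNA from mouse embryos of embryonic day 9.5 was sequenced after microdissection of the second heart field region. This field is the pool of mesodermal progenitors that adds myocardium to the arterial and venous poles of the heart tube. Controls carried Mef2c-Cre, and the gain-of-function (GoF) group carried a Hoxb1 GoF allele (Hoxb1GOF) as well as Mef2c-Cre, so both groups have the Cre driver. The labels list 3 samples per group, and values were analysed for control replicates 2 and 3 and for GoF replicates 1, 2 and 3. Mef2c-Cre is active in second heart field cells and their descendants, whereas the dissected region also holds cells in which it is not active. The labels do not say whether the replicates were separate embryos or pools, so every p-value measures only the spread between these libraries. Isl1, a transcription factor that marks the second heart field, was at 707.5 to 731.2 normalized counts in all 5 libraries. It is a single gene and does not measure how much second heart field tissue each library held.

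At this stage the pacemaker current comes mostly from HCN4 channels, which open on hyperpolarization and depolarize the cell towards the next beat. Calcium entry through L-type channels (Cacna1c and Cacna1d) and T-type channels (Cacna1h) drives the action potential of immature myocytes, and potassium leaves through channels such as KCNH2 to end it. Gap junctions of connexin 45 (Gjc1), connexin 43 (Gja1) and connexin 40 (Gja5) couple the cells, with connexin 45 known as the connexin of the early heart tube.

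Hoxb1 itself, the gene of the GoF allele, had 751.6 and 610.2 normalized counts in control replicates 2 and 3 and 1021.3, 1003.0 and 1041.2 in GoF replicates 1, 2 and 3 (limma adjusted p = 0.0147, but 0.0597 without GoF replicate 1 and 0.251 after removal of the GC trend described here). The libraries held 34260116 to 44384354 reads, recovered from the normalized counts. The mitochondrial share of the reads was 44.4% and 50.7% in the controls and 35.7% to 37.4% in GoF. The controls differed in single genes: Shox2, a homeobox gene of the sinus venosus, was at 286.1 normalized counts in replicate 2 and 10.0 in replicate 3, and the 4 measured liver bud markers summed to 617 and 9. GoF replicate 1 lay between GoF replicates 2 and 3 for 6 of the 8 channel and connexin genes. The share over all genes was not counted, so this does not show how typical that library was. Across 16266 genes tested, the log2 fold change rose with the GC content of the longest transcript (Spearman rho = 0.56; genes are not independent replicates). The fold changes of the members are therefore also given with this trend removed from each library.

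Promoter sequence is shown for 3 members, because Hcn4 and Kcnh2 were the members called higher in GoF and Gja1 had the highest normalized count. Each run is the 250 bases before the RefSeq start site (build GRCm38.p6, the same sequence as mm10), written 5′ to 3′ on the strand of the gene. Capitals mark matches, on either strand, to the HOX-PBX motif TGATNNAT, the MEIS motif TGACAG, the GATA motif AGATAA, the NKX2 motif AAGTG, the T-box motif AGGTGT or the GC box GGGCGG.
Hcn4, chr9:58822699-58822948, plus strand: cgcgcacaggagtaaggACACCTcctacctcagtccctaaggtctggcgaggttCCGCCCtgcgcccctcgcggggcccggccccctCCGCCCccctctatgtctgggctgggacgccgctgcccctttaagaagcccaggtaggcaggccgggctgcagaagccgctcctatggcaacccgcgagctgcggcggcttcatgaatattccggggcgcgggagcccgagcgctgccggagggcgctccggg
Kcnh2, chr5:24329592-24329841, minus strand: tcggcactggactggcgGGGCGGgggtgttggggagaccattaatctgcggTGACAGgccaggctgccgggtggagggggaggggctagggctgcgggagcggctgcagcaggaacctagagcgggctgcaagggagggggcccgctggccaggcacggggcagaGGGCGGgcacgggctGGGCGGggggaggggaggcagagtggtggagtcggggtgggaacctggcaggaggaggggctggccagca
Gja1, chr10:56377050-56377299, plus strand: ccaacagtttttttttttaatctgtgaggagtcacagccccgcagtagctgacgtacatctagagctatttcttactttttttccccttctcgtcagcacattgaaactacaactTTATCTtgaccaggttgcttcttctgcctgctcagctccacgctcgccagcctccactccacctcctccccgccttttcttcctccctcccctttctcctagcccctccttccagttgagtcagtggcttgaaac
The Hcn4 and Kcnh2 windows had a GC content of 71.2% and 73.6%, and the Gja1 window 50%, beside a median of 52.4% over the 32851 windows of all genes. In the Hcn4 window there were 2 GC boxes and 1 T-box match. In the Kcnh2 window there were 3 GC boxes and 1 MEIS match, and in the Gja1 window 1 GATA match. No capitals in these runs overlap between motifs. Of all windows, 32.7% held a GC box, 11.8% the T-box motif, 15.9% the MEIS motif, 9.99% the GATA motif, 40.7% the NKX2 motif and 7.68% the HOX-PBX motif. The Kcnh2 start site lies 22013 bases inside the GENCODE gene, counted from its 5′ end, and no annotated exon lies in any of the 3 windows. RefSeq windows were matched for 6 of the 9 genes. A match of this kind is a description of letters and not a binding site.

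Setting GoF beside control shows how these genes differ in tissue that carries the Hoxb1 GoF allele. Hcn4 and Kcnh2 were called higher in GoF, by 2.11-fold and 2.42-fold, and the other 6 members did not pass the threshold (limma, Benjamini-Hochberg adjusted p under 0.05 over all 16794 genes). Among all genes tested 12.2% were called higher and 10.9% lower. Both calls held without GoF replicate 1, where 4.06% of all genes were called higher, and with DESeq2, where 13.1% were. Both were lost once the GC trend was removed. Gja1 was then the 1 member called higher, against 3.11% of all genes called higher and 3.33% lower. In 3 members every GoF library was above both controls, in 1 every GoF library was below, and in 4 the groups overlapped. Over all genes tested, the GoF libraries lay above both controls in 27.3% and below both in 27.6%.

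**Figure D1:**
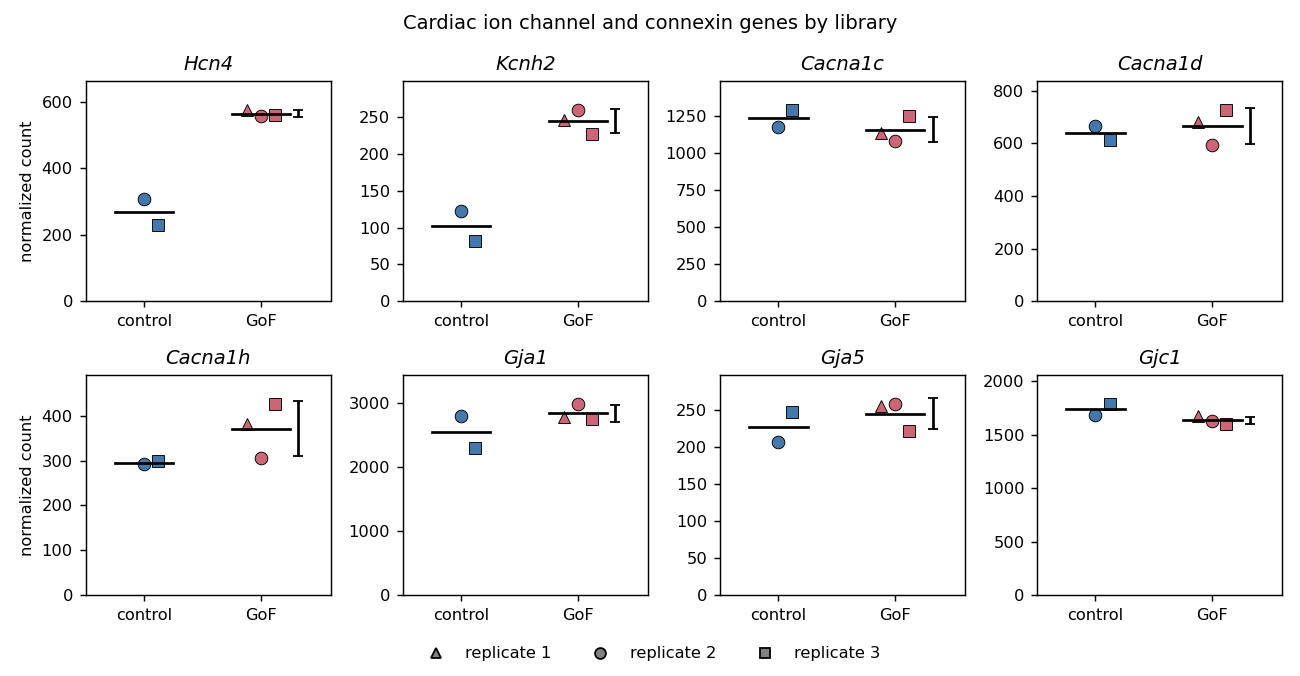
Normalized counts of the 8 members in each library. Points are libraries, horizontal lines are group means and the bar beside GoF is ±1 SD (n = 3; the controls have n = 2). In Hcn4 the GoF libraries sit between 557.3 and 576.3 and in Kcnh2 between 227.3 and 259.6, above the higher controls at 308.4 and 121.9, while the connexin groups lie close together.

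Hcn4 (ENSMUSG00000032338, mm10 chromosome 9, 58823412 to 58863175, plus strand) encodes the main pacemaker channel of the sinus venosus and sinoatrial node. It was at 308.4 and 230.9 normalized counts in control replicates 2 and 3, and at 576.3, 557.3 and 561.5 in GoF replicates 1, 2 and 3. The GoF libraries were close to each other and all above both controls, of which replicate 3 was the lower. The mean was 565.0 ± 10.0 in GoF (SD, n = 3), 2.11 times the control level in the fit (log2 fold change 1.08, SE 0.16, 95% interval 0.72 to 1.44, limma adjusted p = 0.00585). Leaving out any 1 library kept the log2 fold change between 0.87 and 1.29 and the adjusted p between 0.00622 and 0.025, and 5.97% of all genes tested had a higher fold change. The transcript has a GC content of 58.0%, and with the GC trend removed the log2 fold change was 0.49 (SE 0.18, 95% interval 0.08 to 0.90, limma adjusted p = 0.126). On that scale the log2 values were 8.69 and 8.13 in the controls and 8.92, 8.83 and 8.95 in GoF, so the groups stayed apart while the gap to control replicate 2 was small.

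Kcnh2 (ENSMUSG00000038319, chromosome 5, 24319589 to 24351604, minus strand) encodes the pore of the rapid delayed rectifier potassium channel, which ends the cardiac action potential. Its counts were 121.9 and 82.4 in control replicates 2 and 3 and 246.1, 259.6 and 227.3 in GoF replicates 1, 2 and 3. Again each GoF library was above both controls and control replicate 3 was the lowest library. The GoF mean was 244.4 ± 16.2 (SD, n = 3), 2.42 times the control level in the fit (log2 fold change 1.28, SE 0.22, 95% interval 0.77 to 1.78, limma adjusted p = 0.00902). Without 1 library at a time the log2 fold change was 0.99 to 1.56, with an adjusted p of 0.00831 to 0.0359. Kcnh2 has the highest GC content among the members, 61.3%. With the GC trend removed its log2 fold change was 0.56 (SE 0.23, 95% interval 0.02 to 1.09, limma adjusted p = 0.176), and the log2 values were 7.44 and 6.73 in the controls and 7.65, 7.67 and 7.60 in GoF. In bulk tissue of this kind, more cells that express a gene and more RNA per cell cannot be told apart.

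In the authors' deposited table, made with DESeq2, the log2 fold changes were 1.07 for Hcn4 (adjusted p = 6.51e-07) and 1.26 for Kcnh2 (adjusted p = 6.39e-05), and the other 6 members had an adjusted p of 0.252 or more. Other genes moved in ways that were nearly the same across the 5 libraries. By root mean square difference of centred log2 values, among 9082 genes with a mean of at least 200, the nearest to Hcn4 was Arhgap33 (0.045), and the nearest to Kcnh2 were Slc9a3r1 (0.034) and Erf (0.045). The transcripts of these 3 genes had GC contents of 58.5% to 60.9%.

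**Figure D2:**
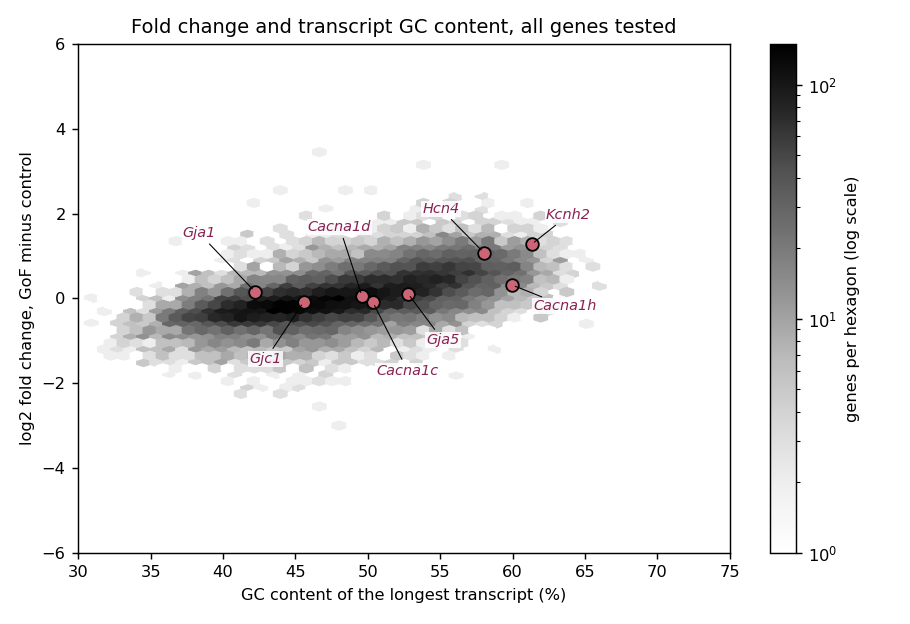
Log2 fold change (GoF minus control) against the GC content of the longest transcript, for all genes tested with a known GC content. Grey hexagons count genes on a log scale and red points are the members. Hcn4 and Kcnh2 lie at 58.0% and 61.3% GC, in the upper part of the GC range, and Cacna1h lies at 60.0% with a log2 fold change of 0.32.

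Cacna1c (ENSMUSG00000051331, chromosome 6, 118587240 to 119196418, minus strand) encodes the pore of CaV1.2, the main L-type calcium channel of heart muscle. It was at 1176.0 and 1292.8 counts in control replicates 2 and 3 and at 1139.2, 1084.7 and 1252.4 in GoF replicates 1, 2 and 3. The groups overlapped, and the log2 fold change was -0.09 (SE 0.11, 95% interval -0.34 to 0.16, limma adjusted p = 0.556). Cacna1d (ENSMUSG00000015968, chromosome 14, 30039939 to 30491455, minus strand) encodes CaV1.3, the L-type channel of pacemaker and atrial cells, which opens at more negative potentials. Its counts were 666.0 and 611.5 in the controls and 679.8, 593.7 and 727.3 in GoF, with a log2 fold change of 0.06 (SE 0.13, 95% interval -0.24 to 0.36, limma adjusted p = 0.766). The lowest and the highest Cacna1d value were both in GoF libraries. As folds, the intervals run from 0.79 to 1.12 of the control level for Cacna1c and from 0.85 to 1.28 for Cacna1d. Of the annotated exon bases of Cacna1d, 4.67% are shared with Chdh on the other strand, whose reads could not be separated without a strand setting.

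Cacna1h (ENSMUSG00000024112, chromosome 17, 25374285 to 25433783, minus strand) encodes CaV3.2, a T-type calcium channel of the embryonic heart. It was at 292.0 and 298.2 counts in the controls and at 382.5, 304.9 and 427.2 in GoF replicates 1, 2 and 3. All GoF libraries were above the controls, but GoF replicate 2 only by a margin smaller than the spread within GoF. The log2 fold change was 0.32 (SE 0.18, 95% interval -0.09 to 0.72, limma adjusted p = 0.216). With a GC content of 60.0%, its value turned to -0.35 when the GC trend was removed (SE 0.19, 95% interval -0.80 to 0.09, limma adjusted p = 0.278). Neither value passed, so Cacna1h has no direction here that holds across both scales. Hcn4 and Kcnh2, of similar GC content, kept a positive sign on both.

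Gja1 (ENSMUSG00000050953, chromosome 10, 56377330 to 56402513, plus strand) encodes connexin 43, the gap junction protein of working ventricular myocardium that is also made by epithelia, neural crest and many mesenchymal cells. It was at 2797.6 and 2297.3 counts in control replicates 2 and 3 and at 2779.9, 2988.7 and 2745.9 in GoF replicates 1, 2 and 3. Control replicate 2 lay within the GoF range and control replicate 3 below it. The log2 fold change was 0.16 (SE 0.11, 95% interval -0.08 to 0.40, limma adjusted p = 0.289). The transcript is the most AU-rich of the members, with a GC content of 42.2%, and the GC trend at that content ran the other way. With the trend removed the log2 values were 11.24 and 11.05 in the controls and 11.55, 11.68 and 11.50 in GoF, and the log2 fold change of 0.43 passed (SE 0.10, 95% interval 0.21 to 0.65, limma adjusted p = 0.0405). With GoF replicate 1 also left out the log2 fold change was as large, at 0.45, and did not pass (limma adjusted p = 0.157), and with the replicate block added instead it was 0.45 (limma adjusted p = 0.137).

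Gjc1 (ENSMUSG00000034520, chromosome 11, 102799579 to 102819700, minus strand) encodes connexin 45. Its counts were 1683.7 and 1790.7 in the controls and 1670.4, 1632.2 and 1602.7 in GoF. Every GoF library was below both controls, by little, and the difference did not pass (log2 fold change -0.09, SE 0.09, 95% interval -0.29 to 0.12, limma adjusted p = 0.494). With the GC trend removed the value was 0.06 (limma adjusted p = 0.712). Gja5 (ENSMUSG00000057123, chromosome 3, 96904693 to 97077416, plus strand) encodes connexin 40, found in atrial myocardium, the conduction system and arterial endothelium. It was at 206.4 and 247.1 counts in the controls and at 254.3, 258.0 and 220.9 in GoF. The groups overlapped, with a log2 fold change of 0.11 (SE 0.17, 95% interval -0.29 to 0.51, limma adjusted p = 0.666) and -0.16 once the GC trend was removed (limma adjusted p = 0.555). Of its annotated exon bases, 2.87% are shared with Gpr89 on the other strand.

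**Figure D3:**
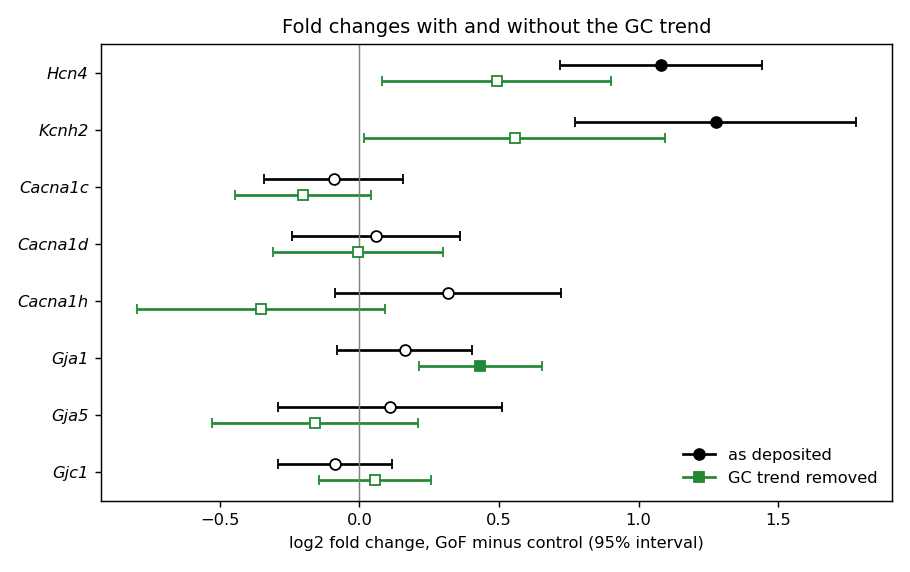
Log2 fold change of each member, GoF minus control, with its 95% interval from limma. Black circles are the deposited normalized counts and green squares the same values with the GC trend removed, and filled symbols have an adjusted p under 0.05. Hcn4 moves from 1.08 to 0.49, Kcnh2 from 1.28 to 0.56, and Gja1 from 0.16 to 0.43.

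Levels can be compared between genes per kilobase of the longest annotated transcript, a length that need not be that of the transcript made here. Merged over all transcripts, annotated exons span 10257 bases in Gja1, 5003 in Gjc1, 21191 in Cacna1c and 5746 in Gja5. The lengths used were 3889, 3413, 13162 and 3668, and Hcn4 has 6118 either way. Kcnh2 has 4845 merged bases, and 4221 were used. The order of Gja1 and Gjc1, of Hcn4 and Gja5 in the controls, and of Kcnh2 and Gja5 in GoF therefore depends on the length chosen. On this scale the connexins Gja1 and Gjc1 led in the controls, at means of 655 and 509 normalized counts per kb. Cacna1c followed at 93.8, then Cacna1d at 66.1, Gja5 at 61.8, Hcn4 at 44.1, Cacna1h at 35.9 and Kcnh2 at 24.2. Cacna1d and Gja5 overlapped between libraries (63.3 and 69.0 against 56.3 and 67.4 per kb), so their order is not set. In GoF, Gja1 and Gjc1 again led, at 730 and 479 per kb. By the longest transcript, Hcn4, at a mean of 92.4 per kb, stood level with Cacna1c at 88.0, and the libraries of both genes overlapped (91.1 to 94.2 and 82.4 to 95.2). By merged exon length Cacna1c would be lower and Hcn4 unchanged, so this parity rests on the length chosen. The values per kb also keep the GC trend. Kcnh2, at 57.9 per kb, was above Cacna1h at 45.1 in GoF and below it in the controls, with no overlap between the libraries of the 2 genes in either group. By the longest transcript, the level of Gja1 per kb was 1.46 and 1.13 times that of Gjc1 in the controls and 1.46, 1.61 and 1.504 times in GoF. Merged exon lengths would put Gja1 below Gjc1 in every library.

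**Figure D4:**
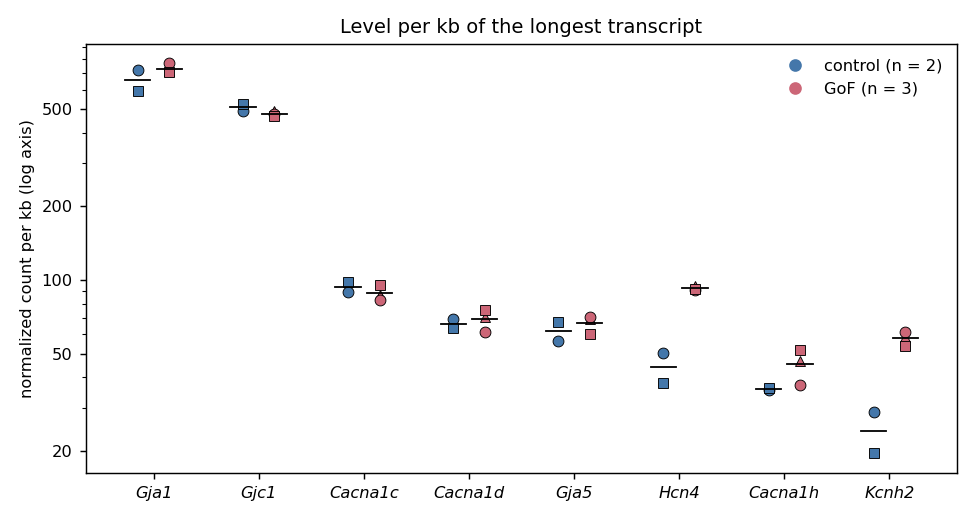
Normalized count per kb of the longest transcript on a log axis, with genes in the order of their control mean. Points are libraries (triangles, circles and squares are replicates 1, 2 and 3) and lines are group means. With this length, Hcn4 rises from 44.1 to 92.4 per kb and reaches the level of Cacna1c, and Gja1 and Gjc1 stay far above the channels in both groups.

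Other genes of the same families went both ways. Of 48 tested genes in 4 lists of other channels, accessory subunits, connexins and junction partners, 6 rose, 7 fell and 35 did not pass, with a median log2 fold change of 0.01 beside -0.01 for all genes tested. With the GC trend removed 1 was higher and 3 were lower. Among 15 other potassium and HCN channel genes, 2 fell and 13 did not pass. Kcnh7, a channel gene of the same ERG family as Kcnh2, fell from 2312.2 and 1511.2 counts to 865.4, 677.0 and 966.0 in GoF replicates 1, 2 and 3 (log2 fold change -1.18, limma adjusted p = 0.00952), and it passed after GC trend removal (-0.80, adjusted p = 0.0405). Kcnh2 and Kcnh7 thus differed in the sign of their fold change. Kcnj5, which encodes a subunit of the acetylcholine-activated potassium channel of pacemaker and atrial cells, fell from 993.1 and 1289.1 counts to 743.4, 692.4 and 915.8, a call near the threshold (limma adjusted p = 0.0463) and lost without GoF replicate 1 (0.117). With the GC trend removed its log2 fold change went from -0.54 to -0.64 and missed the threshold (limma adjusted p = 0.0537).

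Accessory subunits showed the most calls among these lists. Of 16 tested, 5 rose, 4 fell and 7 did not pass, with 3 higher and 2 lower without GoF replicate 1, and 1 higher and 1 lower after GC trend removal. Abcc9, which encodes the sulfonylurea receptor subunit of cardiac and vascular ATP-sensitive potassium channels, fell from 1054.1 and 1111.9 counts to 353.8, 344.6 and 408.6 (log2 fold change -1.55, limma adjusted p = 0.00182). It kept a log2 fold change of -1.44 with the GC trend removed (adjusted p = 0.00362). Kcne3, a potassium channel beta subunit gene, rose from 26.97 and 33.7 counts to 95.4, 65.5 and 152.9 (log2 fold change 1.68, limma adjusted p = 0.0203), also with the GC trend removed (adjusted p = 0.0401). Cacnb3, which encodes a beta subunit of voltage-gated calcium channels, rose 2.04-fold and Cacng7, of the gamma subunit family, rose 2.13-fold, and neither passed after GC trend removal (adjusted p = 0.283 and 0.192). Of 7 other calcium and sodium channel pore genes, 0 passed in limma (1 at an unadjusted p under 0.05), DESeq2 or edgeR (2 and 1 at an unadjusted p under 0.05), among them Scn8a with a log2 fold change of -0.55 and Cacna1b with -0.28. With the GC trend removed 1 of the 7 was lower, Cacna1a, which encodes the P/Q-type calcium channel pore (log2 fold change -0.39 before and -0.996 after, limma adjusted p = 0.0177 after). Of 10 other connexin and junction partner genes, Jup, which encodes plakoglobin, rose (log2 fold change 0.67), Tjp1, which encodes the scaffold ZO-1, fell (-0.33), and the remaining 8 missed the threshold. Neither passed after GC trend removal (adjusted p = 0.808 and 0.0762) or without GoF replicate 1 (0.0777 and 0.107).

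**Figure D5:**
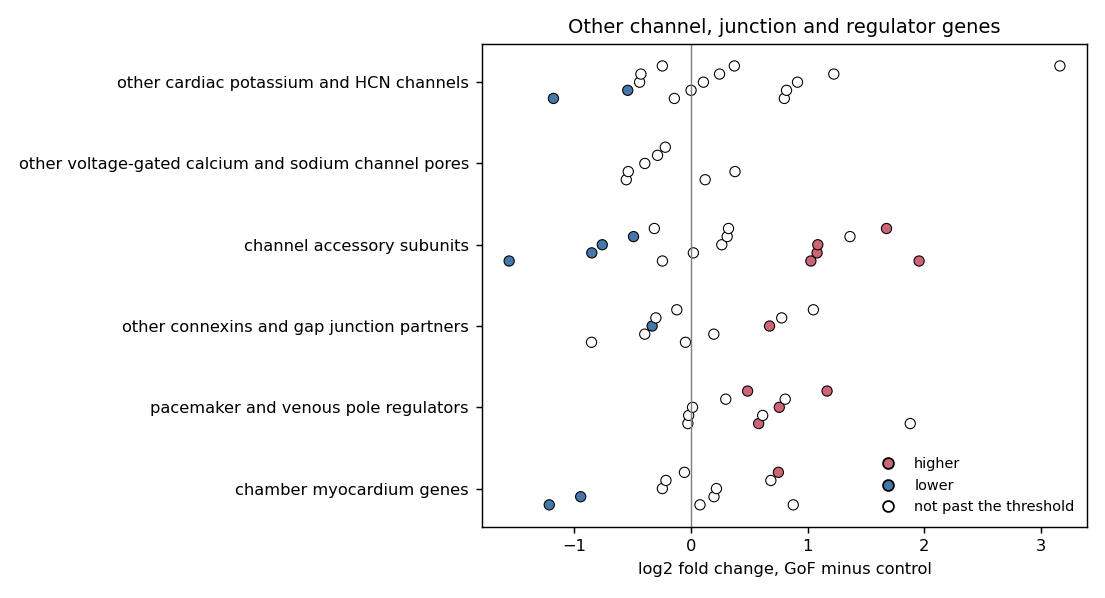
Log2 fold change, GoF minus control, of each tested gene in 6 lists beside the members. Points are genes, red if called higher, blue if called lower and white if not past the threshold. Accessory subunits hold 5 genes called higher and 4 called lower, and the other calcium and sodium channel pores hold none.

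Because Hcn4 is a gene of pacemaker and venous pole myocardium, regulators of that tissue were read in the same fit. Of 11 such genes, 4 rose and 7 did not pass, and 2 rose with the GC trend removed. Bmp4, a growth factor of the splanchnic mesoderm, rose 2.25-fold, and Id2, an inhibitor of basic helix-loop-helix factors that takes part in conduction system development, rose 1.69-fold, and these 2 calls held after GC trend removal (adjusted p = 0.0405 and 0.0158). Tbx5 and Tbx3, T-box factors of the venous pole and of the sinoatrial node, rose with log2 fold changes of 0.58 and 0.49, calls that were lost after trend removal (adjusted p = 0.158 and 0.518) and without GoF replicate 1 (0.0569 and 0.112). Shox2 was at 202.0, 148.0 and 290.4 counts in GoF and did not pass (adjusted p = 0.404). Tbx18, a factor of the sinus horns, was at 535.8 and 267.0 counts in the controls and at 385.6, 361.6 and 374.6 in GoF. In the controls, 7 of the 11 regulators were higher in replicate 2, as were Hcn4 and Kcnh2, with a median log2 difference of 0.21 over the 11, while Tbx3, for one, was at 589.8 counts in replicate 2 and 672.6 in replicate 3. Without control replicate 3 the log2 fold changes of Hcn4 and Kcnh2 were 0.87 and 0.99 (adjusted p = 0.00669 and 0.0119). Leaving out control replicate 2 instead gave 1.29 and 1.56.

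Chamber myocardium genes and markers of heart muscle did not move one way. Of 11 chamber genes, Myl7, an atrial myosin light chain gene, rose 1.68-fold, Myl2, its ventricular counterpart, fell to 0.43 of the control level, Pln, the inhibitor of the calcium pump of the sarcoplasmic reticulum, fell to 0.52, and the remaining 8 missed the threshold. The Myl2 call held after GC trend removal (adjusted p = 0.0244), and those of Myl7 and Pln did not (0.0818 and 0.202). Of 12 cardiomyocyte markers, 4 rose, 2 fell and 6 did not pass, with 1 higher and 3 lower after GC trend removal. Their summed counts were 288203 to 396851 in the controls and 188427 to 237845 in GoF, most of it Ttn. The groups did not overlap in that sum. The other 11 markers, mostly Actc1 and Myh6, summed to 59136 to 68763 in the controls and 66935 to 67647 in GoF, and there the groups overlapped. Tnni1, Mybpc3, Actn2 and Tnnc1, the 4 called higher, were above both controls in every GoF library, with log2 fold changes of 1.22, 0.58, 0.63 and 0.76. Of these calls only that of Tnni1 held after GC trend removal (limma adjusted p = 0.0115, 0.701, 0.454 and 0.195) or without GoF replicate 1 (0.0165, 0.066, 0.0691 and 0.143). Ttn, Ryr2 and Myh7 were below both controls in every GoF library. Their log2 fold changes were -0.93, -0.28 and -0.37 (limma adjusted p = 0.0124, 0.0459 and 0.0965). None of these passed without GoF replicate 1 (limma adjusted p = 0.098, 0.212 and 0.162), and Ttn missed the threshold after GC trend removal (0.051). The 3 lower after GC trend removal were Myh6, Myh7 and Ryr2 (0.013, 0.0169 and 0.0474). All 12 markers were detected in every library, and their part in the values of the members was not tested.

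Markers of other cell types that could hold these transcripts were read too. Of 12 endothelial markers 3 rose and 2 fell, and their sums overlapped (11931 to 13915 counts in the controls, 10717 to 12696 in GoF). Of 10 neural markers 1 rose and 2 fell (5242 to 5870 and 4794 to 5071 counts). Of 10 neural crest markers 1 rose (6093 to 7028 and 7236 to 7573 counts), and of 12 epithelial and endodermal markers 5 rose and 1 fell (5810 to 8010 and 8316 to 8430 counts). Erythroid markers had 3 of 10 higher (7310 to 11823 and 14626 to 18704 counts), skeletal muscle markers 1 of 5 lower (2018 to 2392 and 1480 to 1578 counts), and the 4 liver bud markers 0 calls in limma, DESeq2 and edgeR, also at an unadjusted p under 0.05 (9 to 617 and 268 to 393 counts), with Ttr, Hnf4a and Fgb at 0 in control replicate 3. With the GC trend removed, none of the calls higher in these lists was kept, and 1 endothelial, 1 neural, 1 neural crest, 1 epithelial or endodermal, 1 erythroid and 2 skeletal muscle markers were lower. The part of these cell types in the values of the members was not tested.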

How the data were processed

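Per the submitters' processing notes, the authors processed reads with STAR 2.5.2 on build mm10, counted with HTSeq and compared groups with DESeq2 in R. Annotation and strand setting: not given in the sources used here. Per the labels' protocols, cDNA was primed with random and poly-T primers and amplified isothermally from nanogram amounts of RNA. Such amplification can favour transcripts by base composition, and its part in the GC trend between the groups was not tested. The deposited signal per library is a normalized count. The authors also deposited their own comparison (a log2 fold change, a test score and a p-value per gene). Every deposited signal was a whole multiple of 1 step per library (100% within 0.001), so whole read counts were recovered.

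Log2(normalized count + 1) of genes with a mean of at least 10 was modelled in R 4.3.3 by limma 3.58.1 (trend, robust, no covariates; the planned test for normalized values), and a Benjamini-Hochberg adjusted p under 0.05 was called. Fold changes are on this scale. DESeq2 1.42.0 and edgeR 4.0.16 were run on the recovered reads as alternatives. The GC content of the longest GENCODE M21 transcript matched 16302 genes (96.9%), and its trend was removed by lowess (span 0.3), which also removes true change that follows GC content. The fits were also run on simulated counts with no GC trend and no set difference between the controls, so their behaviour under those features was not tested. The members and the 14 lists were chosen with earlier results of these data known. Named list genes are up to 4 called genes with the lowest adjusted p (the 2 most expressed where none passed). Others were named after their values were seen: Isl1, Shox2, Tbx18, Hnf4a, Fgb, Actn2, Actc1, Ryr2, Myh6, Myh7 and Cacna1a. The genes of most similar pattern are given for Hcn4 and Kcnh2 only, less 1 that is not reported here. There were 2 controls, and amplified reads are not independent molecules.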

Additional observations from a re-analysis of the deposited data

How the results depend on the processing

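Over 19 alternatives, Hcn4 and Kcnh2 stayed higher and past the threshold in 16, and the 3 with the GC trend removed ended both calls: 0.49, 0.48 and 0.48 for Hcn4 and 0.56, 0.55 and 0.56 for Kcnh2 (log2) with the trend alone removed, with the replicate block added to that, and with GoF replicate 1 also left out. The adjusted p ranged up to 0.357 and 0.44. In the same order, Cacna1d gave -0.00552, -0.0223 and -0.0213, Cacna1h -0.35, -0.37 and -0.37, Gja5 -0.16, -0.19 and -0.18, and Gjc1 0.0565, 0.0414 and 0.0424, reversed from values that had not passed. Gja1 passed with the trend removed (0.43), with total-count scaling without mitochondrial genes (0.31) and without control replicate 2 (0.30). That scaling raised the median of all genes by 0.14 and put Cacna1c at 0.0567 and Gjc1 at 0.062; quantile normalization put Cacna1d at -0.0123.

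Leaving out 1 library gave log2 ranges of 0.87 to 1.29 for Hcn4, 0.99 to 1.56 for Kcnh2, -0.16 to -0.02 for Cacna1c, -0.0064 to 0.14 for Cacna1d (lowest without GoF replicate 3), 0.21 to 0.45 for Cacna1h, 0.0198 to 0.30 for Gja1, -0.0191 to 0.24 for Gja5 (lowest without control replicate 2) and -0.13 to -0.04 for Gjc1. The members called higher were 2 to 3, and those called lower 0 to 0.

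Members called higher numbered 2, but 1 with the GC trend removed, 0 with the trend removed and the block added, and 0 with the trend removed and GoF replicate 1 left out. All genes called numbered 2054 higher and 1835 lower; 932 and 467 without trend and robust fitting, 506 and 542 with the GC trend removed, 73 and 90 with the trend removed and the block added, 58 and 72 with the trend removed and GoF replicate 1 left out, and 890 lower with scaling without mitochondrial genes. Leaving out 1 library gave 682 to 2724 higher and 559 to 2547 lower, and without GoF replicates 1, 2 and 3 the counts were 682 and 559, 929 and 808, and 1366 and 1197. Genes of the other lists called were 28 higher and 17 lower; 7 and 3 without trend and robust fitting, 4 and 14 with the GC trend removed, 1 and 4 with the trend removed and the block added, 1 and 3 with the trend removed and GoF replicate 1 left out, 8 lower without mitochondrial genes, and 12 to 40 and 6 to 19 leaving out 1 library. The replicate block alone, which rests on replicates 2 and 3 since GoF replicate 1 has no partner, gave 765 and 606 for all genes and 12 and 8 for the lists, with Hcn4 and Kcnh2 still called. Same-numbered libraries did not deviate together (r = -0.04 for both pairs, across 9082 genes). With 2 controls the deviations of one mirror those of the other, so these values are not separate checks and cannot settle whether libraries were paired. The labels do not state pairs, and the numbers were not taken as pairs. The causes of these shifts were not tested.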
